A study of Homo sapiens with 27 samples.

Results

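The FGF and ERK feedback genes described here are 10 genes, SPRY1, SPRY2, SPRY4, SPRED1, SPRED2, DUSP4, DUSP5, DUSP6, ETV4 and ETV5, out of 44852 genes in the count table. They were found by matching Ensembl identifiers to these symbols, and all 10 were present. The set was chosen by symbol, and partly since SPRY2 and DUSP4 had been seen to be higher on the LN323 matrix than on the LN521 matrix at day 2 in these same libraries. Every value from a comparison of matrices at day 2 is therefore a description and carries no test for these genes.

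FGF ligands bind receptor tyrosine kinases, which recruit adaptors and switch on RAS, RAF, MEK and then the ERK kinases. ERK signalling induces its own brakes. Sprouty and SPRED proteins act on the RAS to RAF step, DUSP phosphatases remove the activating phosphates from ERK, and the ETS factors ETV4 and ETV5 carry the transcriptional response, so transcripts of these genes are commonly used as a readout of the pathway. Human embryonic stem cells depend on FGF and ERK signalling for self-renewal, and the same pathway later patterns the eye field and the neural retina against the pigment epithelium.

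Cells of the human embryonic stem cell line H1 were grown on recombinant laminins and profiled by bulk RNA-seq at day 2, day 22 and day 32, on 3 matrices with 3 libraries each, 27 libraries in all. Cells were kept in NutriStem medium up to day 2, then in a neural induction medium with SB431542 and CKI-7, inhibitors of TGF-beta receptor and casein kinase, and then in a photoreceptor medium with B27 without vitamin A, N2, BDNF, CNTF, retinoic acid and DAPT, a gamma-secretase inhibitor. The matrices are called LN523, LN323 and LN521 after their leading isoform, because the sources differ on the partner laminin. The sample labels give LN523 with LN323, LN323 alone and LN521 with LN323, whereas the methods of the study give LN523 with LN521, LN323 with LN521 and LN521 alone. Sample titles carry other day numbers, which the series design text sets equal to days 2, 22 and 32. Cells on all matrices are 1 line and received the same media, and the labels do not say that replicates were separate cultures, so p-values measure the spread between these libraries.

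Depth ran from 25620624 to 47340990 counts per library, and the 10 genes had 60 to 6858 counts each. The labels call day 2 undifferentiated stem cells and days 22 and 32 photoreceptor progenitors. Summed CPM (counts scaled to library size) of 5 pluripotency markers ran from 4959 to 8250 at day 2, from 23.7 to 369.5 at day 22 and from 5.60 to 52.0 at day 32. The sum of 6 eye field markers was at most 6.91 at day 2 and lay between 922 and 1974 at day 22. The 5 photoreceptor progenitor markers summed to 17.1 to 172.5 CPM at day 32 and 71.6 to 171 CPM at day 2. OTX2 was the highest of these by median at both days. Pigment epithelium markers summed to 118.5 to 228.3 CPM at day 2 and 601 to 2423 CPM at days 22 and 32. PMEL was the highest of them by median at days 2, 22 and 32, at 139.6, 965.7 and 621.0 CPM. No marker on these lists was at 0 in every library.

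Many libraries were not most like the libraries of their own group. Over 16366 genes, the day 2 profile of the library labelled LN523 replicate 2 was most like LN323 replicate 3 (r = 0.656, deviations from the mean of the day) and reached r = 0.045 with its own group. The library labelled LN323 replicate 2 was most like LN521 replicate 3 (r = 0.423) and had at best r = −0.398 with its own group. LN521 replicate 3 in turn had at best r = 0.032 with its own group, and LN523 replicates 1 and 3 had 0.045 and −0.037. At day 22, LN523 replicate 2 had r = 0.818 with LN323 replicate 2 and at best −0.624 with its own group. Every library of day 32 was most like a library of another matrix. At day 22 and day 32, LN521 replicate 1 held the highest pluripotency and neuron marker sums of its day, at 369.5 and 365.3 CPM at day 22 and at 52.0 and 468.3 CPM at day 32. Values without LN523 or LN323 replicate 2 of day 2, or without LN521 replicate 1 of days 22 and 32, are given where they change a result.

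All 10 genes are protein-coding. On GRCh38 the Sprouty genes lie at chr4:123396795-123403760 (SPRY1), chr13:80335976-80341126 (SPRY2) and chr5:142310427-142326455 (SPRY4), and the SPRED genes at chr15:38252836-38357249 (SPRED1) and chr2:65310851-65432637 (SPRED2). DUSP5 lies at chr10:110497907-110511533, DUSP6 at chr12:89347235-89352501, ETV4 at chr17:43527844-43579620 and ETV5 at chr3:186046314-186110318. Counts cover the exons of each gene. No transcript of the 10 matched another locus at 95% identity over 150 bases, but 28.6% of the exonic length of DUSP6 lies opposite the exons of an antisense gene, ENSG00000274021. The library kit kept strand, and the strand setting used for counting was not given in the sources used here, so DUSP6 counts may hold reads of that gene. For ETV4, 1.9% of exonic length lies opposite DHX8, and for ETV5, 2.8% is shared with DGKG on the same strand.

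RefSeq promoter windows were at hand for 6 of the 10 genes, SPRY1, SPRY2, SPRY4, SPRED1, SPRED2 and DUSP6. The 250 bases before the start site are shown for DUSP6, SPRY2 and SPRY4, since DUSP6 and SPRY4 spanned the widest day 2 ranges of the 10 genes and SPRY2 was one of the genes the set was chosen on, and capitals mark the core letters bound by ETS factors, CGGAA on either strand.
DUSP6: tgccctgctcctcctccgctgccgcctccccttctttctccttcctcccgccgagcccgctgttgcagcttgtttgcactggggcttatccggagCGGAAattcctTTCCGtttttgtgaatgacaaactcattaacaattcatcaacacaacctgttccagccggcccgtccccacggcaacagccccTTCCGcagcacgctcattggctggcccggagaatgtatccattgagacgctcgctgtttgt
SPRY2: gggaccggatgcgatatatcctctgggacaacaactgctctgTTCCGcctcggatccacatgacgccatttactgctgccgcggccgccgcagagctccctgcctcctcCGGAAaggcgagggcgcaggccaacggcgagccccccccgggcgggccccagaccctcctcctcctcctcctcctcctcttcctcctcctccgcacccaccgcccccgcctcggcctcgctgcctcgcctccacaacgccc
SPRY4: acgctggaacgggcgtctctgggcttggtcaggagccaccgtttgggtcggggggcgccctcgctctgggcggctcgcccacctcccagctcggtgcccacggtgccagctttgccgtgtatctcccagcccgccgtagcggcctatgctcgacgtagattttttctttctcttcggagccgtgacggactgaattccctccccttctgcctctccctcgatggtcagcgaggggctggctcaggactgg
These windows are on the minus strand of GRCh38.p14, at chr12:89352502-89352751 (DUSP6), chr13:80341127-80341376 (SPRY2) and chr5:142324248-142324497 (SPRY4, an entry whose start lies 774 bases from that of the gene's main transcript). The DUSP6 window held the ETS core 3 times, at 155, 144 and 61 bases before the start, the SPRY2 window 2 times, at 208 and 141 bases, and the SPRY4 window 0 times. Among the windows not shown, the SPRY1 window that starts 1591 bases from the main start held it 1 time, at 66 bases. The SPRED1 and SPRED2 windows, the SPRY1 window at the main start and the remaining SPRY2 windows held it 0 times. Of 34943 RefSeq promoter windows of the same length, 30.2% held it. An AP-1 site (TGANTCA, in 6.6% of all windows), a cyclic AMP response element (TGACGTCA, in 1.6%) and the serum response element core (in 1.2%) were searched on both strands and were not in any of the 10 windows of these 6 genes. A match of letters is a description of the window and not a binding site.

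Levels between genes were compared in the deposited TPM, transcript levels scaled for length and depth. Over all 27 libraries the median was highest for SPRY2 (54.6 TPM, range 15.1 to 101 TPM) and SPRED1 (45.0 TPM, 30.8 to 71.9 TPM), and lowest for ETV4 (6.13 TPM, 2.12 to 146 TPM). The order turned with time. At day 2 ETV4 led with a median of 51.1 TPM and DUSP4 came last with 2.09 TPM. At day 22 SPRY2 led with 64.6 TPM, ahead of SPRED1 with 44.2 TPM, and DUSP5 and ETV4 came last with 4.73 and 3.65 TPM. Day 32 had the same genes at both ends, with medians of 62.3 TPM for SPRY2, 56.5 TPM for SPRED1, 6.63 TPM for DUSP5 and 4.70 TPM for ETV4.

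Neighbours in this order mostly overlapped between libraries of 1 group. At day 2, DUSP4 was the only gene set apart from its upper neighbour on all 3 matrices, with means of 2.40 TPM on LN523, 3.35 TPM on LN323 and 1.45 TPM on LN521. At day 22, SPRY2 lay above SPRED1 without overlap on LN523 (means of 77.6 and 54.0 TPM) and on LN323 (66.5 and 46.3 TPM), but not on LN521 (47.1 and 38.2 TPM). SPRED1 was the steadiest of the 10 genes, with a highest library 2.33-fold above its lowest in TPM, against 68.9-fold for ETV4, 61.4-fold for DUSP4 and 56.1-fold for SPRY4.

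**Figure D1:**
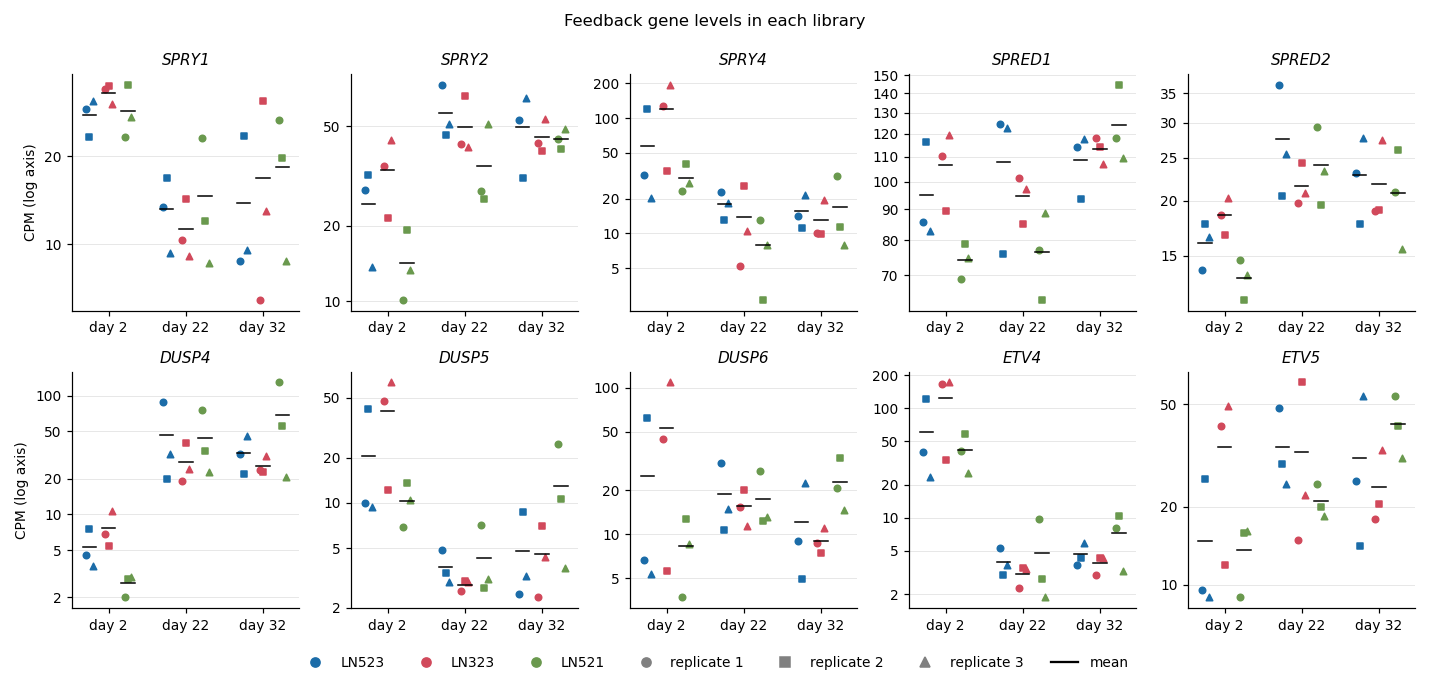
CPM after TMM scaling (log axis) of each of the 10 genes in the 27 libraries, by day, with colour for matrix, shape for replicate and a bar for the mean. DUSP4 rises and ETV4 falls from day 2 to day 22 on every matrix, while SPRED1 stays between 63.8 and 144.5 CPM throughout.

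Day 22 was compared with day 2 within each matrix to ask how these genes changed over differentiation. Beside them, summed proliferation markers went from 1088 to 1279 CPM at day 2 to 368.4 to 913.2 CPM at day 22, and epidermal keratinocyte markers, with TP63 the highest by median, from at most 1.36 CPM to 15.1 to 79.5 CPM (4.61 to 227.5 CPM at day 32), and their part in the changes below was not tested. On LN523, 8 of the 10 genes passed the test, 4 higher and 4 lower. Of all 44852 genes, 11.5% passed higher and 10.2% lower there. The LN523 count was 4 without day 2 replicate 3 (8793 of all genes) and 5 without day 22 replicate 1 (8443). On LN323, 1 gene was higher and 5 were lower (11.8% and 10.9% of all genes), and on LN521, 3 were higher and 3 lower (10.8% and 8.09%). Among the 16366 genes that averaged over 1 CPM, 8198, 8523 and 7135 passed on LN523, LN323 and LN521. The median log2 fold change of the 10 genes was −0.07 on LN523, −0.88 on LN323 and 0.34 on LN521, against 0.04, 0.01 and 0.12 over genes above 1 CPM. With edgeR's filterByExpr, which drops low genes and lets each gene's own spread count for more, 6, 5 and 5 of the 10 passed, beside 41.7%, 43.4% and 36.2% of the genes then tested. In bulk RNA, fewer cells of a type and less RNA per cell cannot be told apart, here and below.

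SPRY1 and SPRY4, inhibitors of the RAS to RAF step, were lower at day 22. SPRY4 had 31.9, 119.6 and 20.3 CPM in the LN523 libraries at day 2 and 22.6, 13.2 and 18.4 CPM at day 22, with overlap of the lowest day 2 library. On LN323 it had 128, 34.8 and 193 CPM and then 5.18, 25.7 and 10.6 CPM, and on LN521 23.3, 39.9 and 27.3 CPM and then 13.2, 2.65 and 7.88 CPM, in both cases with no overlap. The log2 fold changes were −1.69 ± 0.52 (SE, edgeR adjusted p = 0.0125) on LN523, −3.07 ± 0.55 (1.39e-05) on LN323 and −1.96 ± 0.52 (0.00408) on LN521. The LN523 call rested on the library labelled replicate 2 of day 2, without which the log2 fold change was −0.41 (edgeR adjusted p = 0.758). It was also lost without day 22 replicate 2 or 3 (edgeR adjusted p = 0.0802 and 0.0658), with filterByExpr (0.071) and with DESeq2 (0.0554), and the LN521 call was lost without day 22 replicate 2 (log2 fold change −1.39, edgeR adjusted p = 0.0932).

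SPRY1 had 23.3 to 35.1 CPM in the 9 libraries at day 2. At day 22 it had 13.4, 16.8 and 9.35 CPM on LN523 and 10.3, 14.3 and 9.14 CPM on LN323, below every day 2 library, and 23.2, 12.0 and 8.62 CPM on LN521, where replicate 1 lay with the day 2 values. The log2 fold changes were −1.16 ± 0.36 (edgeR adjusted p = 0.0118), −1.58 ± 0.36 (0.000484) and −0.97 ± 0.36 (0.0476). The LN523 call was lost without day 2 replicate 3 (edgeR adjusted p = 0.138) or day 22 replicate 1 (0.0621) or 3 (0.120), and the LN521 call without any 1 of 5 of its 6 libraries, at edgeR adjusted p from 0.0617 to 0.377, the exception being day 22 replicate 1.

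SPRY2 moved the other way. It had 27.9, 31.8 and 13.7 CPM on LN523 at day 2 and 73.0, 46.0 and 50.8 CPM at day 22, a log2 fold change of 1.19 ± 0.30 (edgeR adjusted p = 0.00181) with no overlap, and 0.84 without day 2 replicate 3 (0.0526). On LN521 it went from 10.1, 19.3 and 13.4 CPM to 27.7, 25.6 and 51.0 CPM (1.25 ± 0.30, edgeR adjusted p = 0.00124), and on LN323 from 34.5, 21.4 and 44.2 CPM to 42.4, 65.8 and 41.2 CPM with overlap (0.61 ± 0.30, edgeR adjusted p = 0.158). The day 2 libraries of LN323 and LN521 are among those on which SPRY2 was selected, so its changes on those matrices are not independent of the choice. Only the LN523 change is.

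Of the SPRED genes, which bind RAS pathway proteins including neurofibromin, SPRED2 had 14.0, 17.7 and 16.5 CPM on LN523 at day 2 and 36.5, 20.5 and 25.5 CPM at day 22 (log2 fold change 0.76 ± 0.27, edgeR adjusted p = 0.0357). On LN521 it went from 14.7, 11.9 and 13.6 CPM to 29.4, 19.5 and 23.4 CPM (0.84 ± 0.27, edgeR adjusted p = 0.02), and on LN323 the change of 0.23 ± 0.27 missed the threshold. SPRED2 libraries of the 2 days did not overlap on LN523 or LN521, yet 3 of the 6 single omissions lost the call on LN523 (edgeR adjusted p = 0.217, 0.0866 and 0.155 without day 2 replicate 1, day 2 replicate 3 and day 22 replicate 1) and 3 on LN521 (0.0797, 0.0567 and 0.101 without day 2 replicate 2, day 2 replicate 3 and day 22 replicate 1). SPRED1 lay between 63.8 and 144.5 CPM in all 27 libraries, and its log2 fold changes of 0.16, −0.17 and 0.04 each had a standard error of 0.20.

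The DUSP genes split. DUSP4, a nuclear phosphatase of ERK, had 2.00 to 10.8 CPM in the 9 libraries at day 2 and 18.9 to 88.0 CPM at day 22, with no overlap on any matrix. On LN523 it went from 4.58, 7.51 and 3.70 CPM to 88.0, 20.0 and 32.4 CPM, a log2 fold change of 3.01 ± 0.45 (edgeR adjusted p = 3.18e-07). On LN521 it went from 2.00, 2.88 and 3.00 CPM to 75.8, 34.4 and 22.8 CPM (3.95 ± 0.46, edgeR adjusted p = 1.3e-09), and on LN323 from 6.88, 5.41 and 10.8 CPM to 18.9, 39.9 and 23.9 CPM (1.87 ± 0.42, edgeR adjusted p = 0.000453). All 3 calls held under the 14 alternatives tried for each, all as higher, with a log2 fold change of 4.32 at most. DUSP4 was selected on the day 2 libraries of LN323 and LN521, whereas the LN523 libraries had no part in that choice.

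DUSP5, a nuclear and ERK-specific phosphatase, fell on LN523 from 10.0, 42.0 and 9.34 CPM to 4.86, 3.42 and 2.97 CPM (log2 fold change −2.33 ± 0.53, edgeR adjusted p = 0.000574). It fell on LN323 from 47.5, 12.3 and 63.2 CPM to 2.59, 3.00 and 2.95 CPM (−3.95 ± 0.56, edgeR adjusted p = 1.39e-07). The libraries of the 2 days did not overlap on either matrix, and the LN523 value was −1.41 without day 2 replicate 2 (edgeR adjusted p = 0.0571). On LN521 it had 6.93, 13.6 and 10.4 CPM and then 7.12, 2.70 and 3.13 CPM (−1.24 ± 0.51, edgeR adjusted p = 0.0904). There the highest day 22 value was in replicate 1, the library with the highest pluripotency and neuron marker sums, and without it the log2 fold change was −1.75 (edgeR adjusted p = 0.0178).

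DUSP6, the cytoplasmic phosphatase of ERK, moved in no common direction. It had 6.69, 62.4 and 5.36 CPM on LN523 at day 2 and 30.7, 10.7 and 14.8 CPM at day 22 (log2 fold change −0.31 ± 0.63, edgeR adjusted p = 0.89). Without the library labelled LN523 day 2 replicate 2, which held 62.4 CPM, the change was 1.72 and passed as higher (edgeR adjusted p = 0.0335). On LN323 it had 44.9, 5.58 and 108 CPM and then 15.4, 20.1 and 11.3 CPM, which overlapped (−1.77 ± 0.62, edgeR adjusted p = 0.0314). That call was lost with filterByExpr (edgeR adjusted p = 0.115) and without day 2 replicate 1 or 3 (0.0508 and 0.643) or day 22 replicate 1 or 3 (0.108 and 0.234). On LN521 it had 3.70, 12.6 and 8.61 CPM and then 26.8, 12.2 and 13.1 CPM (1.13 ± 0.61, edgeR adjusted p = 0.239), with the same antisense limit on every DUSP6 count.

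ETV4, an ETS factor induced by FGF signalling, fell most of the 10 genes on each matrix. It had 39.5, 120.3 and 23.4 CPM on LN523 at day 2 and 5.25, 2.97 and 3.66 CPM at day 22. On LN323 the values were 165, 33.8 and 172 CPM and then 2.28, 3.48 and 3.40 CPM, and on LN521 40.7, 57.6 and 25.7 CPM and then 9.71, 2.72 and 1.87 CPM. Every day 22 library lay below every day 2 library. The log2 fold changes were −3.88 ± 0.50 (edgeR adjusted p = 1.57e-08), −5.36 ± 0.54 (1.03e-11) and −3.14 ± 0.49 (1.03e-06), and each held under all 14 alternatives tried.

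ETV5, the close relative of ETV4, passed the test on LN523 alone, and as higher. On LN523 it had 9.58, 25.7 and 8.95 CPM at day 2 and 48.4, 29.4 and 24.6 CPM at day 22, which overlapped (log2 fold change 1.24 ± 0.43, edgeR adjusted p = 0.0276). This call was lost with filterByExpr (edgeR adjusted p = 0.085), with DESeq2 (0.0628) and without day 2 replicate 1 or 3 (0.203 and 0.208) or day 22 replicate 1 (0.169). On LN323 it had 41.1, 12.0 and 49.0 CPM and then 14.9, 60.6 and 22.2 CPM (−0.09 ± 0.43), and on LN521 8.99, 15.9 and 16.1 CPM and then 24.6, 20.0 and 18.5 CPM (0.65 ± 0.42, edgeR adjusted p = 0.366), where all day 22 libraries lay above all day 2 libraries. Whether the change from day 2 to day 22 differed between matrices was not tested for any of the 10 genes.

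**Figure D2:**
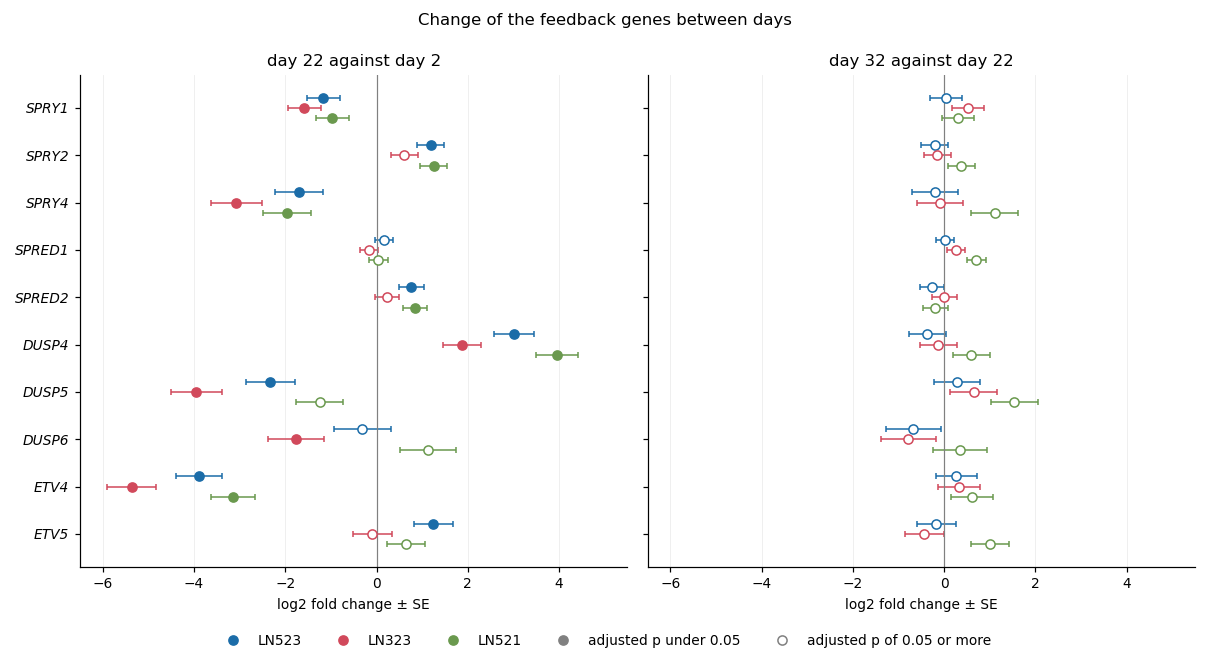
Fitted log2 fold change (x axis, bars are standard errors) from day 2 to day 22 (left) and from day 22 to day 32 (right) for the 10 genes on each matrix, with filled points for an edgeR adjusted p under 0.05 over 44852 genes. ETV4 lies between −5.36 and −3.14 and DUSP4 between 1.87 and 3.95 on all 3 matrices in the left panel, and no point is filled in the right panel.

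At day 2, before neural induction, the same 3 libraries were the highest of the 9 for 9 of the 10 genes, all but SPRY1, and stood furthest from the rest in SPRY4, DUSP5, DUSP6, ETV4 and ETV5. Over 16366 genes LN323 replicates 1 and 3 were alike (r = 0.695), and had r = 0.482 and 0.656 with LN523 replicate 2. The share of all genes with these 3 libraries highest was not computed, so the count is not read as a trait of the 10 genes. SPRY4 had 128 and 193 CPM in LN323 replicates 1 and 3 and 119.6 CPM in the library labelled LN523 replicate 2, and 20.3 to 39.9 CPM in the other 6 libraries. These libraries were also the high ones in DUSP6, at 44.9, 108 and 62.4 CPM against 3.70 to 12.6 CPM, and in DUSP5, at 47.5, 63.2 and 42.0 CPM against 6.93 to 13.6 CPM. So they were in ETV4, at 165, 172 and 120.3 CPM against 23.4 to 57.6 CPM, and in ETV5, at 41.1, 49.0 and 25.7 CPM against 8.95 to 16.1 CPM. LN323 replicate 2 lay with the LN521 libraries and LN523 replicates 1 and 3 in these 5 genes. The gap was smaller in SPRED1, at 110.2 CPM or more in the 3 libraries and 89.4 CPM or less elsewhere, and in SPRED2, at 17.7 CPM or more and 16.8 CPM or less. The high libraries carried 2 matrix labels and came from 3 lanes.

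SPRY2 and DUSP4, on which the set was chosen, were highest in the same 3 libraries too, with 31.8 CPM in LN523 replicate 2 for SPRY2 and 7.51 CPM for DUSP4. SPRY2 had 34.5, 21.4 and 44.2 CPM on LN323 and 10.1, 19.3 and 13.4 CPM on LN521, a log2 difference of 1.18. DUSP4 had 6.88, 5.41 and 10.8 CPM on LN323 and 2.00, 2.88 and 3.00 CPM on LN521, a log2 difference of 1.46. Neither gene overlapped between these 2 groups, and both were higher on LN323 in 3 of 3 lanes, as they were selected on this comparison. SPRED1 and SPRED2 were also higher on LN323 in 3 of 3 lanes with no overlap, at log2 differences of 0.42 and 0.36, so 4 of the 10 genes did not overlap, beside 16.0% of all genes. The log2 differences of the remaining genes ran from 0.11 for SPRY1 to 2.99 for DUSP6, with SPRY4 at 2.05, DUSP5 at 2.07, ETV4 at 1.70 and ETV5 at 1.29, each of these higher on LN323 in 2 of 3 lanes. Without LN323 replicate 3 the difference was 0.69 in SPRY2, 1.10 in DUSP4, 0.79 in ETV4 and 0.85 in ETV5, and without LN323 replicate 1 it was 0.81 in ETV5.

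The same test as above passed 7 of the 10 genes between LN323 and LN521 at day 2 (2.5% of all genes), 5 between LN523 and LN323 (0.233%) and 1 between LN523 and LN521 (0.624%), and nothing is read from these counts. At day 2 the fit gave each gene the common spread in place of its own. With filterByExpr, which did not, 0 of the 10 genes and 0% of all genes passed in each of the 3 comparisons, and DESeq2 passed 2, 0 and 0 of the 10 and limma 0 in each. At an unadjusted p under 0.05 there were 8, 6 and 5 of the 10, beside 11.4%, 2.38% and 8.07% of all genes. The count between LN323 and LN521 was 3 without LN323 replicate 3 (247 of all genes), 4 without LN521 replicate 1 (257) and 8 without LN323 replicate 2 (3439). Between LN523 and LN323 it was 0 without replicate 1 or 3 of either matrix (8 to 43 of all genes). It was 6 there without LN323 replicate 2 (763) and 5 without LN523 replicate 2 (343). Between LN523 and LN521 it was 0 without LN521 replicate 1 or 2 or LN523 replicate 2 (28, 109 and 84 of all genes). It was 6 there without LN523 replicate 3 (890).

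**Figure D3:**
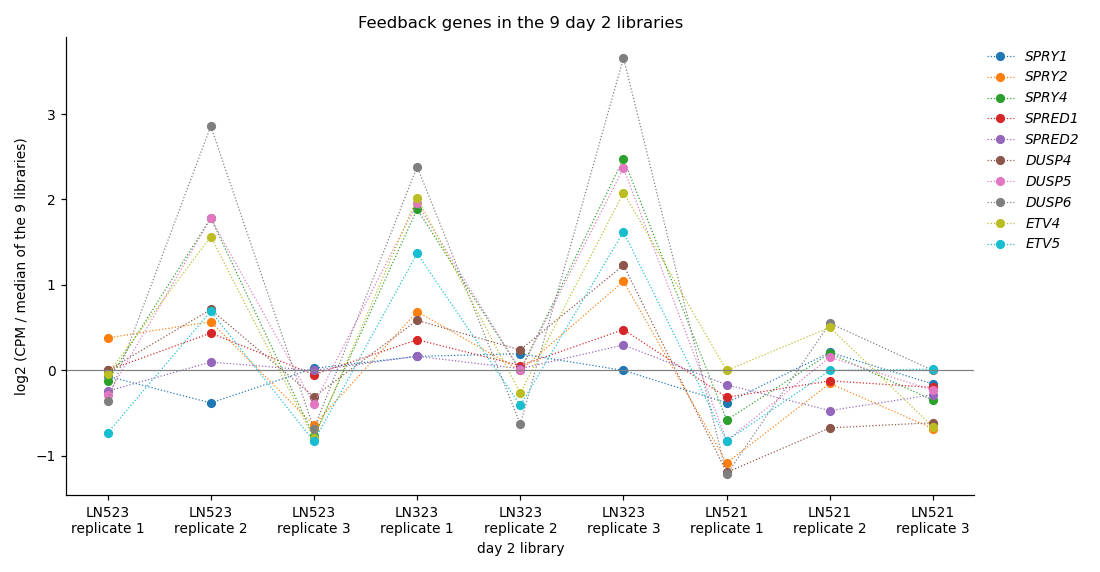
Level of the 10 genes in the 9 libraries of day 2 as log2 of CPM over the gene's median CPM of these libraries (y axis), with 1 colour per gene and dotted lines only to guide the eye between libraries. SPRY4, DUSP5, DUSP6, ETV4 and ETV5 stand above their median in LN523 replicate 2 and LN323 replicates 1 and 3, where DUSP6 had 44.9 to 108 CPM against at most 12.6 CPM elsewhere.

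Most of the 10 genes varied together over the 9 libraries of day 2. For all 45 pairs the median Pearson r of log2(CPM + 1) was 0.838, with 44 pairs positive (n = 9 libraries, which share lanes and media). SPRY2 and DUSP4 were chosen partly on values of these libraries, and no such median was computed for pairs of other genes. These correlations are therefore a description and not evidence for a shared trait of the set. High values were found both within the genes with the widest gaps (0.99 for SPRY4 and DUSP5) and outside them (0.971 for SPRED1 and DUSP4). The median was 0.525 at day 22 (40 positive), 0.493 at day 32 (38 positive) and 0.358 over all 27 libraries (29 positive), where the changes over time described above enter. SPRY1, which differed little between libraries at day 2 (23.3 to 35.1 CPM), and SPRY2 had r = −0.591 over the 27 libraries.

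Some other genes of the pathway, picked after their values were seen apart from FGF19, EGR1 and FOS, were high or low in the same libraries of day 2 or did not follow them. IL17RD, a membrane inhibitor of FGF signalling, had 126.6, 122.7 and 79.5 CPM in LN323 replicates 1 and 3 and LN523 replicate 2 and 26.4 to 56.5 CPM in the other 6. FGF19, a secreted ligand, had 15.7 and 20.1 CPM in LN323 replicates 1 and 3, 8.41 CPM in LN523 replicate 2 and 2.81 to 6.40 CPM elsewhere. FGFR1, an FGF receptor, was on the low side there, at 552, 540 and 576 CPM against 553 to 1143 CPM. The immediate early genes EGR1 and FOS, also induced through ERK, were high elsewhere. EGR1 had 35.8 and 48.9 CPM in LN521 replicates 1 and 2 and 1.01 to 6.05 CPM in the other 7, and FOS was likewise highest in LN521 replicates 1 and 2, at 19.3 and 40.0 CPM. The pluripotency marker sums of day 2 were lowest in these same LN521 replicates, at 4959 and 5793 CPM, and their part in this was not tested.

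Matrices were compared at day 22 and day 32 to ask whether the laminin isoform moved these genes in differentiating cells, on libraries that the choice of genes did not use. None of the 10 genes passed edgeR's test in any of the 6 comparisons. At day 22, the share of all genes that passed was 0.013% for LN523 against LN323, 0.572% for LN523 against LN521 and 0.616% for LN323 against LN521. At day 32 the shares were 0%, 0.0609% and 0.117%, in this order. At an unadjusted p under 0.05 there were 0, 4 and 3 of the 10 genes at day 22, beside 1.33%, 4.56% and 5.08% of all genes, and 0, 4 and 5 at day 32, beside 1.9%, 5.17% and 4.47%. DESeq2, limma and filterByExpr each passed 0 in all 6. The median log2 difference of the 10 genes was 0.21, 0.14 and −0.08 at day 22 and 0.15, −0.61 and −0.62 at day 32, against medians between −0.02 and 0.00 over genes above 1 CPM.

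SPRY4 came nearest at day 22, with 22.6, 13.2 and 18.4 CPM on LN523 against 13.2, 2.65 and 7.88 CPM on LN521 (log2 difference 1.22 ± 0.33, edgeR adjusted p = 0.0544). With filterByExpr the edgeR adjusted p of this difference was 0.956. LN521 replicate 1 was the high library of its group, and without it the difference was 2.01 (edgeR adjusted p = 2.25e-08). Without it SPRY4 also passed as higher on LN323 than LN521 (edgeR adjusted p = 5.79e-05), against a log2 difference of 0.89 ± 0.36 (0.587) with it and −0.20 without LN323 replicate 2. With LN521 replicate 1 left out, 2 of the 10 genes passed for LN523 against LN521 (421 of all genes) and 1 for LN323 against LN521 (628). Without LN521 replicate 3 there was 1 in each (502 and 545 of all genes), and without LN523 replicate 2 there were 3 between LN523 and LN521 (421) and 1 between LN523 and LN323 (223).

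At day 32, DUSP6 was the 1 gene of the 10 with no overlap between matrices, beside 6.35% of all genes in that comparison, with 8.67, 7.39 and 11.1 CPM on LN323 and 20.6, 33.3 and 14.6 CPM on LN521 (log2 difference −1.44 ± 0.40, edgeR adjusted p = 0.284). With filterByExpr the edgeR adjusted p of this difference was 0.832. Without LN521 replicate 1 the log2 difference stayed at −1.45, while the edgeR adjusted p fell to 1.94e-07 and the count of all genes that passed went from 46 to 2143. Without replicate 3 the log2 difference was −1.94 (edgeR adjusted p = 0.034). Leaving out LN521 replicate 1 or 3 passed 2 and 3 of the 10 genes between LN323 and LN521 (2143 and 122 of all genes) and 1 each between LN523 and LN521 (1907 and 76). DUSP4 and DUSP5 also had a wide LN521 range, with 129, 55.2 and 20.7 CPM for DUSP4 and 24.8, 10.6 and 3.69 CPM for DUSP5, the highest values of day 32 in both being in replicate 1. That library held the highest neuron marker sum of day 32, 468.3 CPM against 88.2 to 305.6 CPM, and its part in these values was not tested.

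**Figure D4:**
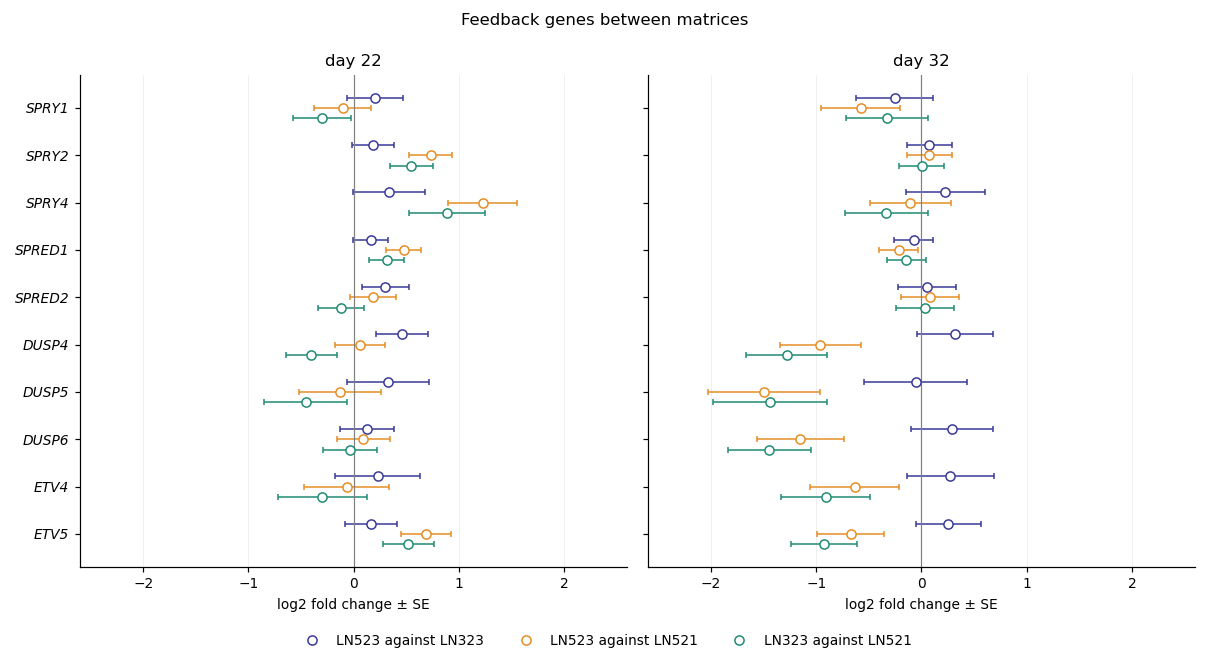
Fitted log2 difference between matrices at day 22 and day 32 for the 10 genes (points, with bars for the standard error), from edgeR on the 9 libraries of each day. None of the differences has an adjusted p under 0.05, the lowest being 0.0544 for SPRY4 between LN523 and LN521 at day 22.

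Day 32 was compared with day 22 to see whether the genes went on changing in photoreceptor medium. None of the 10 passed on any matrix, while 0.381% of all genes passed on LN523, 0.0424% on LN323 and 0.268% on LN521. At an unadjusted p under 0.05 there were 0, 0 and 4 of the 10, beside 4.38%, 2.85% and 6.16% of all genes, limma passed 0 in each, and DESeq2 passed 0, 0 and 1, the 1 being SPRED1 on LN521 (log2 fold change 0.73, DESeq2 adjusted p = 0.0257). SPRED1 had 77.3, 63.8 and 88.9 CPM on LN521 at day 22 and 118, 144.5 and 109.6 CPM at day 32, with no overlap (0.71 ± 0.20 and edgeR adjusted p = 0.171). The median log2 fold change of the 10 genes was −0.19 on LN523, −0.05 on LN323 and 0.60 on LN521, against 0.00, −0.01 and 0.00 over genes above 1 CPM.

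Whether the step from day 22 to day 32 differed between matrices was tested directly. None of the 10 genes passed in the 3 comparisons, and 0%, 0.00236% and 0% of all genes passed for LN523 minus LN323, LN523 minus LN521 and LN323 minus LN521. At an unadjusted p under 0.05 there were 0, 2 and 2 of the 10, beside 1.39%, 4.28% and 2.94% of all genes, and DESeq2 passed 0 in each. For LN523 minus LN521 the fitted differences ran from −1.30 (SPRY4) to −0.07 (SPRED2), with a median of −0.76 against 0.03 over genes above 1 CPM. Those of SPRED2, SPRY1 and ETV4 were within 1 SE of 0 and changed sign under 4, 3 and 1 of 19 alternatives. With 3 libraries a group, changes simulated at 2 on the log2 scale were recovered in 56% of genes in this test for LN523 minus LN323. Smaller differences were therefore often not detectable at this depth and number of libraries. The simulated test also called 65 genes that had been given no change.

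The rest of the pathway was read in 7 lists for day 22 against day 2. Of all 44852 genes, 11.5%, 11.8% and 10.8% passed as higher on LN523, LN323 and LN521, and 10.2%, 10.9% and 8.09% as lower. Among the 16366 genes that averaged over 1 CPM, 8198, 8523 and 7135 passed. Of 22 FGF family genes, 6 passed as higher and 5 as lower on LN523, 5 and 4 on LN323, and 5 and 3 on LN521. They included FGF11, FGF12, FGF13 and FGF14, which are not classed as secreted ligands. FGF9, a ligand made by the neural retina, had at most 0.246 CPM in any day 2 library and 15.5 to 32.4 CPM at day 22, and its log2 fold changes were 7.48 ± 0.49, 7.46 ± 0.48 and 8.97 ± 0.55 on LN523, LN323 and LN521 (edgeR adjusted p = 4.68e-18, 3.17e-18 and 5.66e-19). FGF3 and FGF10 rose from near or at 0 to 0.690 to 5.67 CPM (FGF3) and 0.625 to 2.09 CPM (FGF10 on LN523). FGF4, a stem cell ligand, passed as lower on all 3 matrices and fell on LN521 from 6.84 to 11.2 CPM to 0.0947 to 2.04 CPM, and FGF16 was at 0 in all LN323 libraries of day 22. FGF2, the ligand that sustains stem cells in culture, and FGF8, a retinal inducer, were picked after their values were seen. FGF2 fell by 2.45, 2.23 and 2.39 on the log2 scale and FGF8 was 3.02, 2.86 and 3.55 higher, all past the threshold.

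Among 7 FGF receptors and co-receptors, 2 were higher and 3 lower on LN523, 3 and 3 on LN323, and 2 and 4 on LN521. FGFR4 went from 115.3 to 154.8 CPM at day 2 to 3.10 to 17.4 CPM at day 22, with log2 fold changes of −4.46 ± 0.30, −5.18 ± 0.31 and −3.67 ± 0.29. FGFR1 fell less, by 1.84, 1.53 and 1.84 on the log2 scale, and kept 181 to 263 CPM at day 22. KL, the FGF co-receptor Klotho, was at 0 in all day 2 libraries of LN523 and LN323 and had 1.11 to 2.41 CPM there at day 22. Of 11 other receptors that feed ERK, 6 passed as higher on each matrix and 3, 3 and 2 as lower on LN523, LN323 and LN521. EGFR was 3.66 ± 0.25 higher on LN523 on the log2 scale (edgeR adjusted p = 2.78e-17), and PDGFRA, NTRK2 and ERBB4 were also among the higher ones.

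Of 22 genes of the FGF to ERK cascade, 6, 5 and 6 were higher and 4, 7 and 2 lower, with a median log2 fold change of 0.22, 0.13 and 0.21. Beside adaptors, RAS, RAF, MEK and ERK genes, they included the RAS inhibitors NF1 and RASA1 and the repressor CIC. The RAS exchange factors SOS2 and SOS1 rose on LN523 by 1.76 ± 0.21 and 1.02 ± 0.20 on the log2 scale. NF1 rose too, by 1.04 ± 0.20 on LN523 and 0.96 ± 0.20 on LN323. Of 7 other regulators, not all of them inhibitors, 3, 1 and 3 were higher and 2 on each matrix lower. On LN323 the 1 higher gene was FLRT3. FLRT3, a membrane protein that binds FGF receptors and is counted here with the regulators, was 5.56, 7.13 and 5.73 higher on the log2 scale, from 2.03 to 9.95 CPM at day 2 to 223 to 606 CPM at day 22. LRIG1, which restrains ERBB receptors, fell by 2.41, 3.06 and 2.04, and CBL, a ubiquitin ligase for active receptors, fell by 1.22, 1.20 and 1.28.

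Relatives of the 10 genes also split, 3 of 11 being higher on each matrix and 3, 4 and 2 lower. DUSP9 and DUSP10 were higher on all 3, with DUSP9 at 2.20, 2.55 and 2.52 and DUSP10 at 1.53, 1.96 and 1.24 on the log2 scale, while DUSP2 fell on LN523 and LN323 by 1.86 and 2.22. Of 10 other ERK-induced genes, 8, 7 and 6 were higher and 0, 2 and 0 lower, with a median log2 fold change of 1.62, 1.63 and 1.22. EPHA4 was 2.28, 2.63 and 1.80 higher, EPHA2 2.64, 1.82 and 2.88 higher, and JUNB 2.54, 2.47 and 1.55 higher on the log2 scale. FOSL1 fell on LN323 (log2 fold change −1.89 ± 0.68, edgeR adjusted p = 0.0372), from a mean of 1.46 CPM to 0.364 CPM.

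**Figure D5:**
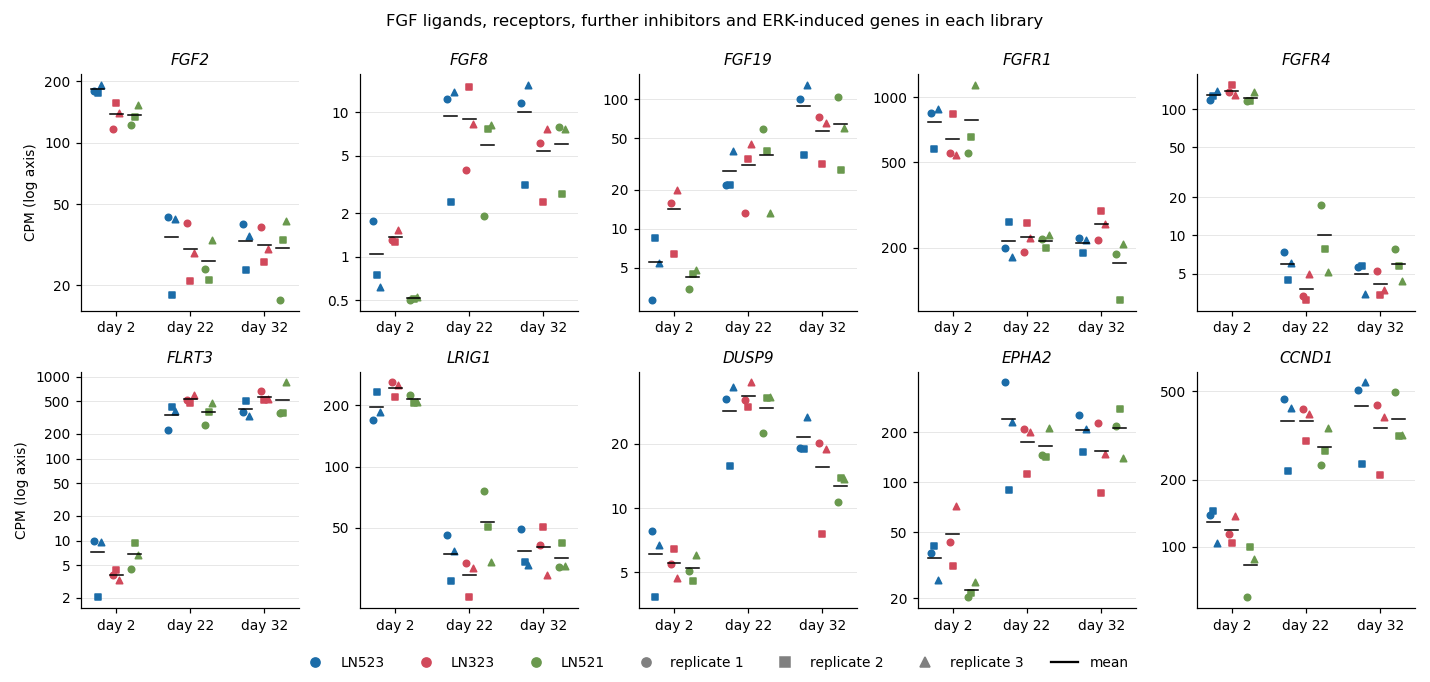
CPM (log axis) of 10 other genes of the pathway in the 27 libraries by day, with colour for matrix, shape for replicate and a bar for the mean. FGFR4, FGFR1, LRIG1 and FGF2 are lower at day 22 than at day 2 and FLRT3, FGF8, DUSP9, EPHA2 and CCND1 higher on every matrix, with FLRT3 at most 9.95 CPM at day 2 and at least 223 CPM at day 22.

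Between matrices, few pathway genes passed after day 2. At day 22 the log2 difference in PDGFRA was 1.28 ± 0.24 for LN523 against LN521 (edgeR adjusted p = 0.00065) and 1.46 ± 0.23 for LN323 against LN521 (8.71e-06), and PDGFRA was 1.34 ± 0.25 higher on LN323 than on LN521 at day 32 (0.0235). With filterByExpr the edgeR adjusted p of these was 0.956, 0.933 and 0.805. EPHA4 was 0.75 ± 0.17 and 0.65 ± 0.17 higher in the same comparisons, PDGFRB 0.79 ± 0.18 higher and LRIG1 −0.83 ± 0.20 on LN323 against LN521, and none of these passed with filterByExpr. From day 22 to day 32, FGF1 was the 1 ligand that passed, on LN523 and LN521, and its high LN521 value lay in 1 library, at 13.4 CPM against 0.352 and 1.06 CPM. With filterByExpr its edgeR adjusted p was 0.189 on LN523 and 0.122 on LN521.

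For 4 of the 10 genes, those with the most similar pattern over the 27 libraries were listed by Pearson r of log2(CPM + 1) among 18409 genes. Libraries share day, matrix and lane, so these values are a description. DUSP4 was nearest to FJX1 (r = 0.954), HIVEP3 (0.934), FBXL14 (0.916), WTIP (0.915) and the Notch target HES1 (0.915). ETV4 was nearest to REXO2 (0.972), HAS3 (0.967), TRBC2 (0.964), SPIB (0.964) and GDF3 (0.964), the last a gene of pluripotent cells. SPRY2 was nearest to PKDCC (0.904), SYS1 (0.90), NGRN (0.873) and RNF40 (0.871). The closest gene to DUSP6 reached only 0.81 (CLIC1), followed by SFXN4 (0.767), IL4R (0.737), BID (0.725) and CNST (0.712).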

How the data were processed

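RNA from 27 libraries was sequenced by the authors as 150-base pairs from a strand-specific total RNA kit. Per the labels and the methods of the study, reads were trimmed with cutadapt, aligned to GRCh38 (Ensembl 79) with STAR 2.5.2b and counted with featureCounts 1.5.1. The authors deposited rounded counts per gene without ribosomal and mitochondrial genes, and TPM made from these counts. Of the non-zero counts, 68.8% are even and 78477 values are 2 against 12170 of 1, so the counts may not be single read pairs, and this was not resolved.

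Genes with a summed count above 1 were tested with edgeR 4.0.16 (TMM, quasi-likelihood test, Benjamini-Hochberg adjustment over all genes tested, threshold 0.05) in R 4.3.3, with lane, equal to the replicate number, as a block as in the study. Matrices were compared on the 9 libraries of a day, days on all 27, and the change from day 22 to day 32 on 18. Same-lane libraries of LN523 and LN323 deviated together at days 22 and 32 (r from 0.484 to 0.815 over 16366 genes) but not at day 2 (−0.686 to 0.095). Prior degrees of freedom were infinite at day 2 and 19.9 to 87.7 in the other fits, against 3.71 to 7.37 with filterByExpr. Alternatives were DESeq2 1.42.0, limma 3.58.1 on log2(TPM + 1), RLE scaling, no block, other sets of libraries and single omissions. None of the 27 pairs of libraries within a group agreed within sampling noise, with the deposited counts taken as single read pairs. Members and lists were chosen with earlier results of these data known. Pathway genes were named by rule, up to 3 per list and comparison with the largest change among those past the threshold, above 1 CPM in a group and of 1 sign in all lanes. On simulated counts, changes of 1 and 2 on the log2 scale were recovered in 41% and 87% of genes between matrices at day 22 and in 29% and 78% between days on LN523. Each size was given to 100 genes, and these tests also called 9 and 43 genes that were simulated without a change. The simulated day 22 to 32 test called 65 such genes. False calls can therefore exceed the share set by the 0.05 threshold, in the test between days and in that of the day 22 to 32 change. The result of 1 gene among those most similar to SPRY2 is not reported here.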

Additional observations from a re-analysis of the deposited data

How the results depend on the processing

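The number of the 10 genes past the threshold moved most at day 2. Between LN323 and LN521 it was 7, and 2 with DESeq2 and 0 with limma, with all 27 libraries in the fit, and with filterByExpr with or without the replicate block. Between LN523 and LN323 it was 5, and 0 under each of these and with only the 6 libraries compared. Between LN523 and LN521 it was 1, 0 under all of these and without the lane 2 libraries of LN523 and LN323, and 3 with no replicate block. Single omissions gave 3 to 8, 0 to 6 and 0 to 6, beside 124 to 3439, 8 to 763 and 28 to 890 of all genes. The cause was not tested.

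After day 2, leaving out the LN521 libraries of lane 1, chosen after seeing the data, gave 1 and 2 genes between LN323 and LN521 at days 22 and 32, and 2 and 1 between LN523 and LN521, where the count was 0. Single omissions at day 22 gave 0 to 1 (LN323 and LN521), 0 to 1 (LN523 and LN323) and 0 to 3 (LN523 and LN521). Beside these, 13 to 628, 0 to 223 and 17 to 511 of all genes passed. At day 32 single omissions gave 0 to 3 (LN323 and LN521) and 0 to 1 (LN523 and LN521), beside 0 to 2143 and 1 to 1907 of all genes. For day 32 against day 22 on LN521, DESeq2 gave 1, as did the 9 libraries of LN521 alone. For day 22 against day 2 on LN523, limma gave 4, filterByExpr with no replicate block 5 and single omissions 4 to 7, against 8. With no replicate block the counts for day 22 against day 2 were 8, 6 and 5 on LN523, LN323 and LN521, and SPRY1 on LN521 was lost (edgeR adjusted p = 0.0768).

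Over the 180 values of the 10 genes, 205 of 2710 alternative values changed sign, in 85 of the 180, and 2 of these passed the threshold, both for DUSP6 from day 2 to day 22 on LN523. Those of values the text gives follow. For day 22 against day 2, DUSP6 on LN523 was 1.66 without the lane 2 day 2 libraries of LN523 and LN323 and 0.58 with limma (−0.93 to 1.72 over single omissions). ETV5 on LN323 was 0.23 with limma (−0.80 to 0.43), SPRED1 on LN323 was 0.18 with limma, and SPRED1 on LN521 was −0.053 with DESeq2 and −0.053 with RLE scaling (−0.033 to 0.202). SPRY1 between LN323 and LN521 at day 2 was −0.12 with limma, and SPRY4 between these at day 22 ran from −0.20 to 1.73. For the 81 named pathway results, 565 alternative values kept their call and 98 lost it, single omissions kept 427 and lost 59, and none changed sign.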
